A study of Mus musculus with 21 samples.

Results

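The long noncoding RNAs (lncRNAs) of lymphoid progenitors (LPs) were defined as the genes that the QuantSeq table types as lncRNA and whose mean over its 15 libraries was at least 5 CPM, that is, reads scaled to a total of 1000000 per library. This rule gave 188 lncRNAs out of 9963 lncRNA rows and 55421 genes, and the members were thus chosen by their level over all libraries and not by a difference between conditions. All 188 were found by identifier in the GENCODE vM21 annotation of mm10, which calls 68 of them lincRNA, 51 processed transcript, 40 antisense, 14 bidirectional promoter lncRNA, 12 sense intronic and 1 sense overlapping, and which calls Gm47283 and Gm10762 protein-coding. Just inside the limit were Snhg16 at a mean of 5.12, C130036L24Rik at 5.09 and Gm28791 at 5.01, and just outside it were 2310040G24Rik at 4.99, 4921531C22Rik at 4.98 and Gm20492 at 4.95.

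The libraries came from an LP line with the strain label C57BL6/J that lacks Ebf1, the factor that commits progenitors to the B lineage, and that was kept on OP9 stromal cells with SCF, IL-7 and Flt3L and without Notch stimulation. Cells carrying Cas9-GFP were given retroviral pools of 2 sgRNAs, marked by human nerve growth factor receptor (hNGFR), against luciferase (sgControl), Lmo2, Zbtb1, Cbfa2t2 or Cbfa2t3. Lmo2 is a bridging factor of transcriptional complexes, Zbtb1 a zinc finger protein, and Cbfa2t2 and Cbfa2t3 are corepressors of the ETO family. GFP+hNGFR+ cells were sorted 5 days after sgRNA transduction, with 3 biological replicates per condition, so that each condition is a population of edited cells of the same line and not a set of clones or animals. Chromatin immunoprecipitation sequencing (ChIP-seq) of Zbtb1 and Cbfa2t3 was made on LPs without sgRNA, with 2 replicates and 1 deposited peak list for each factor.

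LncRNAs are transcripts that are not translated into a known protein. Some act in the nucleus: Xist coats and silences an X chromosome, Kcnq1ot1 and Airn are transcribed from 1 parental allele and silence imprinted genes near them, Neat1 builds the paraspeckle, and Malat1 is held in nuclear speckles. Others are known chiefly as precursors, since their introns or exons carry small nucleolar RNAs (snoRNAs), which guide the modification of ribosomal RNA, or microRNAs, which repress mRNAs through a short seed.

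Between 1705416 and 2095447 reads per library were recovered from the values, and the 3 sgControl libraries were the shallowest, with at most 1727730. At these depths 3 reads corresponded to between 1.43 and 1.76 CPM. All 9 markers of lymphoid progenitors had a mean above 1, and their summed level was 1552 to 1771 in the 15 libraries, whereas 10 markers of OP9 stroma summed to between 0 and 8.80. The targeted mRNAs do not show the edits, since 3′ reads say nothing of an edit elsewhere in a gene. The paper reported loss of the targeted proteins by immunoblot. Zbtb1 mRNA was 55.7 to 66.6 CPM in sgControl and 94.4 to 113 in the libraries labelled sgZbtb1, and Cbfa2t3 mRNA 172 to 209.6 in sgControl and 340.5 to 364 in those labelled sgCbfa2t3. Both rises passed the test used below (log2 fold changes of 0.77 and 0.88, adjusted p = 0.00102 and 1.67e-07, limma). Neither mRNA passed it in another comparison with sgControl. Lmo2 was 15.8 to 23.2 in sgControl and 8.48 to 24.4 in sgLmo2, and Cbfa2t2 11.03 to 12.3 and 16.4 to 25.5 in sgCbfa2t2. Reads at the 3′ end of Ebf1 were found in every library, at 209 to 366 CPM. Summed levels of B- and T-lineage markers moved with the 3 conditions that have calls below. The summed level of 6 B-lineage markers, 3 of them with a mean above 1, was 311 to 375 in sgControl, 212 to 228 in sgZbtb1, 254 to 275 in sgCbfa2t2 and 255 to 291 in sgCbfa2t3. Ebf1 is among the 6 and made up nearly all of this sum. It alone had 305 to 366 in sgControl, 209 to 221 in sgZbtb1, 249 to 271 in sgCbfa2t2 and 251 to 289 in sgCbfa2t3. The sum of 6 T-lineage markers was 412 to 442 in sgControl, 182 to 259 in sgZbtb1, 342 to 393 in sgCbfa2t2 and 295 to 328 in sgCbfa2t3. In sgLmo2 the B- and T-lineage sums were 259.5 to 329 and 466 to 502. The sum of 6 myeloid markers was 23.2 to 26.0 in sgControl and 7.67 to 18.7 in sgLmo2. It was 23.1 to 34.1 in sgZbtb1, 20.3 to 39.4 in sgCbfa2t2 and 26.6 to 35.4 in sgCbfa2t3. The part of these markers in the results was not tested. In these bulk libraries, fewer cells of a type and less RNA per cell cannot be told apart.

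Most of the 188 lncRNAs were scarce. The median level was 11.3 CPM, the quartiles were 6.83 and 22.8, and 83 lncRNAs lay between 5 and 10. Another 88 lay between 10 and 100, 14 between 100 and 1000, and 3 above 1000. For comparison, the 8922 protein-coding genes with a mean of at least 5 had a median of 39.0. Because QuantSeq reads 1 position near the 3′ end of a transcript, these values were not divided by length. The spread between replicates followed the level, with a median coefficient of variation within conditions of 28.7% over all 188, of 10.98% for those above 100 and of 38.5% for those below 10. In all 15 libraries, 187 of the 188 were above 0 and 166 were above 3 reads.

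The 10 highest lncRNAs held 96.1% of the summed level. Gm42418 had a mean of 87679 CPM, and it was followed by Xist at 1484, Malat1 at 1385, Gas5 at 667, Gm26917 at 511 and Kcnq1ot1 at 252. Below them were Snhg9 at 221, Snhg1 at 214, Oip5os1 (also known as Cyrano) at 180.4 and 2410006H16Rik at 180.1. Gas5, Snhg1, Snhg9 and 2410006H16Rik are snoRNA hosts, so that 4 of the 10 highest belonged to this group.

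**Figure D1:**
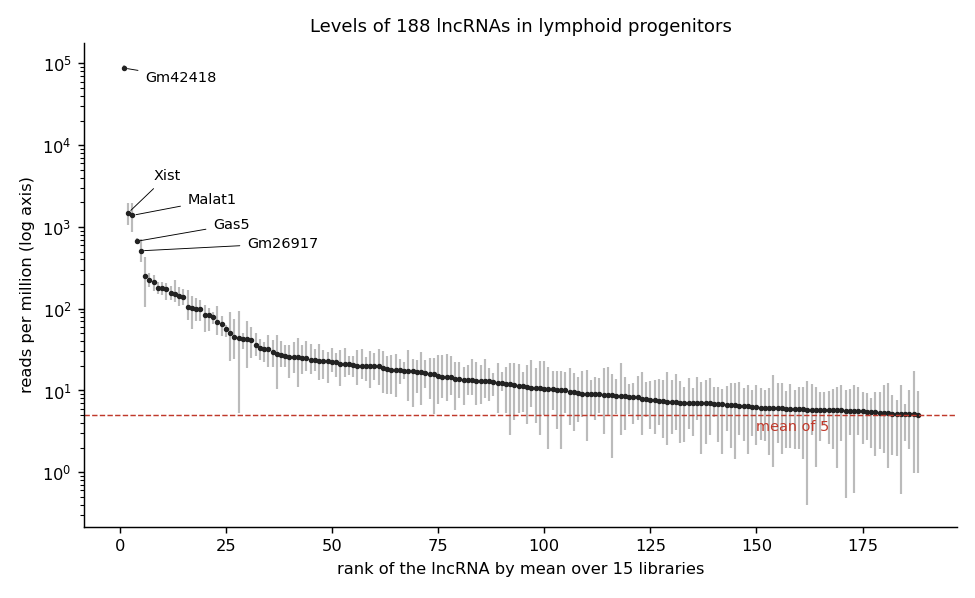
Level of each of the 188 lncRNAs in CPM (log axis), ordered by rank. Points are means over 15 libraries, vertical lines run from the lowest to the highest library (the 1 library at 0, for A430106G13Rik, is drawn at the bottom of its line), and the dashed line is the mean of 5 used by the rule. Gm42418 stands at 87679 and only 2 other lncRNAs, Xist and Malat1, are above 1000.

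Gm42418 alone held 90.8% of the summed level, and its identity is uncertain. The gene (chr17:39846958-39848788, plus strand, mm10) is a single exon of 1831 bp that lies wholly opposite a ribosomal RNA gene of the vM21 annotation, and 1245 bp of it are shared with the 18S ribosomal pseudogene Rn18s-rs5 of RefSeq. Gm26917 (chr17:39843013-39846341, plus strand) ends 616 bp before it, and a Zbtb1 peak with a score of 5875.1 lies inside Gm26917 at chr17:39844038-39844408. Reads of Gm42418 cannot be told apart from reads of ribosomal RNA, so sums over the lncRNAs are given with and without it. Gm42418 took 7.98% to 9.64% of the reads of a library, and its level did not pass the test in any comparison.

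Expression in each targeting condition was compared with sgControl to ask which lncRNAs depend on these factors. The test was limma on log2(value + 1) over all 11554 genes with a mean above 1, with Benjamini-Hochberg adjustment over these genes, and a lncRNA is called here when its adjusted p was under 0.05. The 4 comparisons share the 3 sgControl libraries, so that a high or low sgControl library enters all of them. Fold changes on this scale understate the change of genes near the limit of 5.

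In sgZbtb1 11 of the 188 lncRNAs fell and 1 rose. These 12 calls are 6.38% of the lncRNAs beside 4.79% of all genes tested, with 5.85% beside 2.94% for lower calls and 0.532% beside 1.85% for higher calls. In sgCbfa2t3 5 lncRNAs fell and none rose, 2.66% beside 0.537% of all genes, of which 0.407% were lower and 0.13% higher. In sgCbfa2t2 3 fell and none rose, 1.6% beside 0.147% of all genes, of which 0.121% were lower and 0.026% higher. A direct comparison of sgZbtb1 with sgCbfa2t3 called 2 lower and 1 higher, 1.6% beside 1.13% of all genes, of which 0.822% were lower and 0.303% higher.

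No lncRNA was called in sgLmo2 by limma, edgeR or DESeq2, and limma called 0.0173% of all genes there. At an unadjusted p under 0.05, 14 lncRNAs passed in limma (7.45% beside 5.65% of all genes), 15 in edgeR and 8 in DESeq2. The study's own rule asks for an unadjusted p under 0.05, a log2 fold change beyond 1 in size and a mean over 10 in at least 1 of both groups, and here it gave 11 lncRNAs in sgZbtb1 (5.85% beside 1.66% of all genes), 4 in sgCbfa2t3 (2.13% beside 0.658%), 3 in sgCbfa2t2 (1.6% beside 0.502%), 2 in sgLmo2 (1.06% beside 0.234%) and 1 between sgZbtb1 and sgCbfa2t3 (0.532% beside 0.71%). Of the calls made by adjusted p, this rule kept 7 of 12, 2 of 5, 0 of 3 and 1 of 3 in sgZbtb1, sgCbfa2t3, sgCbfa2t2 and the direct comparison.

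These counts rest in part on single libraries. The 12 calls of sgZbtb1 became 7 without sgControl replicate 2 and 7 without sgControl replicate 3. In sgCbfa2t2 the 3 calls became 1 without sgControl replicate 3, 1 without sgCbfa2t2 replicate 2 and 6 without sgCbfa2t2 replicate 3. The 5 calls of sgCbfa2t3 became 3 without sgControl replicate 2, 2 without sgControl replicate 3, 2 without sgCbfa2t3 replicate 1, 3 without sgCbfa2t3 replicate 2 and 8 without sgCbfa2t3 replicate 3, and the 3 calls between sgZbtb1 and sgCbfa2t3 became 1 without sgCbfa2t3 replicate 2.

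Further settings ended more of these calls. With all genes above 0 in the fit, Xist, Malat1, Kcnq1ot1, Gm34680, Gm6093 and H19 were still called in sgZbtb1, H19 in sgCbfa2t3 and none in sgCbfa2t2 or between sgZbtb1 and sgCbfa2t3. Against the 9 libraries of the other targeting conditions in place of sgControl, Xist, Gm34680, H19 and Gm26917 were still called in sgZbtb1 and none of the calls in sgCbfa2t2 and sgCbfa2t3 was. Those 9 libraries include conditions in which some of the same lncRNAs fell. This contrast asks what is particular to a condition and cannot decide whether a lncRNA fell from sgControl. With DESeq2, 9 of the 12 calls were kept in sgZbtb1, all but those of Neat1, G530011O06Rik and A430106G13Rik, and Malat1 alone was still called in sgCbfa2t2 and sgCbfa2t3, where DESeq2 gave no adjusted p for Neat1 and H19 in sgCbfa2t3.

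Over the list, medians were below 0 in 3 of the 4 comparisons with sgControl. The median log2 fold change of the 188 was −0.23 in sgZbtb1, where the median of all genes tested was −0.03, and 129 of the 188 (68.6%) were below 0 beside 53.3% of all genes. In sgCbfa2t3 the medians were −0.13 and −0.01, and in sgCbfa2t2 they were −0.11 and 0.00. In sgLmo2 both were 0.01. Groups that did not overlap were seen for 40 lncRNAs below sgControl in sgZbtb1 (21.3% beside 12.8% of all genes) and for 36 in sgCbfa2t3 (19.1% beside 9.06%).

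The nuclear lncRNAs held most of the calls outside sgZbtb1. Of 11 listed lncRNAs of nuclear bodies and chromatin 8 were members, and of these Xist, Malat1, Kcnq1ot1 and Neat1 fell in both sgZbtb1 and sgCbfa2t3, the first 3 of them also in sgCbfa2t2, and none was called in sgLmo2. Of all genes 2.94% fell in sgZbtb1, 0.407% in sgCbfa2t3 and 0.121% in sgCbfa2t2. The other members, Tug1, Firre, Morrbid and Pvt1, were not called in any comparison. Firre had the largest difference among these 4, with log2 fold changes of −0.90 in sgZbtb1 and −1.27 in sgCbfa2t3 (adjusted p = 0.131 and 0.0843, limma).

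Xist, on the minus strand at chrX:103460366-103483254, had 1798, 1812 and 1825 CPM in sgControl. It had 1183, 1256 and 1170.1 in sgZbtb1, 1350.2, 1068 and 1531 in sgCbfa2t2, 1276, 1367 and 1573 in sgCbfa2t3, and 1409.6, 1682 and 1964 in sgLmo2. The 3 sgControl libraries lay close together and above every library of sgZbtb1, sgCbfa2t2 and sgCbfa2t3, whereas sgLmo2 spanned them. The log2 fold change was −0.59 ± 0.09 (SE) in sgZbtb1 (adjusted p = 1.12e-06), −0.48 in sgCbfa2t2 (adjusted p = 0.00296) and −0.37 in sgCbfa2t3 (adjusted p = 0.0195, limma).

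The Xist call in sgCbfa2t2 was lost without sgControl replicate 3 (−0.47) or sgCbfa2t2 replicate 2 (−0.33). In sgCbfa2t3 it was lost without sgControl replicate 1, 2 or 3 (−0.38, −0.37 and −0.37) and without sgCbfa2t3 replicate 1 or 2 (−0.30 and −0.35). Among the other lncRNAs of the X inactivation centre, Jpx, an activator of Xist, had log2 fold changes of 0.26 in sgZbtb1 and −0.12 in sgCbfa2t3, and Ftx, also a positive regulator of Xist, had −0.78 and −0.60. Neither was called. Tsix, the antisense repressor of Xist, was below the limit of the rule and did not exceed 2.26 CPM in any library.

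Malat1 had 1669, 1838 and 1961 CPM in sgControl, and it is encoded on the minus strand at chr19:5795690-5802672. It had 1235, 1183 and 1049.8 in sgZbtb1, 1293, 863 and 1359 in sgCbfa2t2, 1076, 1255 and 1281 in sgCbfa2t3, and 1444, 1405 and 1869 in sgLmo2. All 9 libraries of the first 3 conditions were below all sgControl libraries. Log2 fold changes were −0.66, −0.66 and −0.60 in sgZbtb1, sgCbfa2t2 and sgCbfa2t3 (adjusted p = 9.79e-07, 3.18e-05 and 6.21e-05, limma), and these calls were kept when any 1 library was left out. Against the 9 other targeting libraries, which include the other conditions in which Malat1 fell, these calls were lost (−0.16, −0.17 and −0.09). Those in sgCbfa2t2 and sgCbfa2t3 were also lost with all genes above 0 in the fit.

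Neat1 lies next to Malat1 on the same strand, at chr19:5824708-5845478. Its values were 45.3, 86.2 and 91.5 in sgControl, 22.9, 35.9 and 38.3 in sgZbtb1, and 25.2, 30.3 and 49.3 in sgCbfa2t3. The sgControl libraries were themselves spread, the lowest being near the highest of sgCbfa2t3, so that sgCbfa2t3 and sgControl overlapped and sgZbtb1 and sgControl did not. The log2 fold change was −1.14 in sgZbtb1 and −1.06 in sgCbfa2t3 (adjusted p = 0.00146 and 0.0191, limma). The latter call was lost without sgControl replicate 2 or 3 (−0.92 and −0.88) and without sgCbfa2t3 replicate 1 or 2 (−0.86 and −0.99). Frmd8, the nearest protein-coding gene, had log2 fold changes of 0.17 in sgZbtb1 and −0.10 in sgCbfa2t3 and was not called.

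Of 10 listed imprinted lncRNAs 4 were members, and Kcnq1ot1, H19 and Airn fell in sgZbtb1, Kcnq1ot1 and H19 in sgCbfa2t3, and Kcnq1ot1 in sgCbfa2t2. Of all genes 2.94%, 0.407% and 0.121% fell in these comparisons. The other member, Peg13, had log2 fold changes between −0.06 and 0.31 in the 4 comparisons and was not called.

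H19, a maternally expressed RNA that is also the precursor of miR-675, had the largest fold change among the called lncRNAs. It lies on the minus strand at chr7:142575529-142578143. Its values were 41.2, 72.3 and 54.5 CPM in sgControl, 8.94, 5.26 and 10.3 in sgZbtb1, and 15.5, 13.1 and 27.1 in sgCbfa2t3. They were 33.5, 70.2 and 47.8 in sgCbfa2t2 and 67.3, 87.0 and 94.2 in sgLmo2. Libraries of sgZbtb1 were the lowest, those of sgCbfa2t3 lay between them and sgControl without overlap, and sgCbfa2t2 overlapped sgControl.

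H19 in sgZbtb1 was 0.160 times sgControl, a log2 fold change of −2.64 ± 0.25 (SE, adjusted p = 4.12e-12), and in sgCbfa2t3 the log2 fold change was −1.57 (adjusted p = 6.21e-05, limma). Direct comparison of sgZbtb1 with sgCbfa2t3 gave −1.08 (adjusted p = 0.0100, limma), a call that was lost without sgZbtb1 replicate 2 (−0.82) or sgCbfa2t3 replicate 3 (−0.78). The call in sgCbfa2t3 was lost against the 9 other targeting libraries (−0.82), and the direct one with all genes above 0 in the fit and with the 6 libraries fitted alone. The log2 fold change of H19 in sgLmo2 was 0.58 and was not called. Igf2, the paternally expressed partner of H19, was at 0 in all 15 libraries.

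Kcnq1ot1, a single exon on the minus strand at chr7:143203458-143296549 that runs against Kcnq1, had 344, 380.3 and 409 CPM in sgControl. It had 164, 191 and 145 in sgZbtb1, 268, 105 and 241 in sgCbfa2t2, 145, 210.1 and 276 in sgCbfa2t3, and 209, 251 and 434 in sgLmo2. All libraries of the first 3 conditions were below all sgControl libraries, and sgLmo2 ranged from below to above them. The log2 fold changes were −1.18, −0.99 and −0.88 in sgZbtb1, sgCbfa2t2 and sgCbfa2t3 (adjusted p = 3.22e-06, 0.00296 and 0.00394, limma).

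Without sgControl replicate 3 the Kcnq1ot1 calls in sgCbfa2t2 (−0.93) and sgCbfa2t3 (−0.83) were lost, as they were without sgCbfa2t2 replicate 2 (−0.57) and sgCbfa2t3 replicate 1 (−0.64). Kcnq1 itself was at 0 in all libraries, and Cdkn1c, an imprinted gene of the same cluster, did not exceed 6.38.

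Airn starts inside Igf2r, which it silences on the paternal allele, and runs against it on the plus strand at chr17:12741311-12860136. Airn had 21.5, 29.5 and 28.1 CPM in sgControl and 6.70, 10.5 and 17.7 in sgZbtb1. The log2 fold change was −1.20 (adjusted p = 0.0156, limma). It was lost as a call without sgControl replicate 2 or 3 (−1.11 and −1.15) and without sgZbtb1 replicate 1 or 2 (−0.89 and −1.18). Igf2r, which encodes the receptor that clears insulin-like growth factor 2, also fell in sgZbtb1, from 216 to 253 CPM in sgControl to 111 to 177, with a log2 fold change of −0.70 (adjusted p = 1.36e-05, limma), and was not called in the other comparisons with sgControl. Whether the counting used strand is not given in the sources used here, so reads of lncRNAs that overlap another gene, as Airn and Igf2r do, cannot be told apart from reads of that gene.

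**Figure D2:**
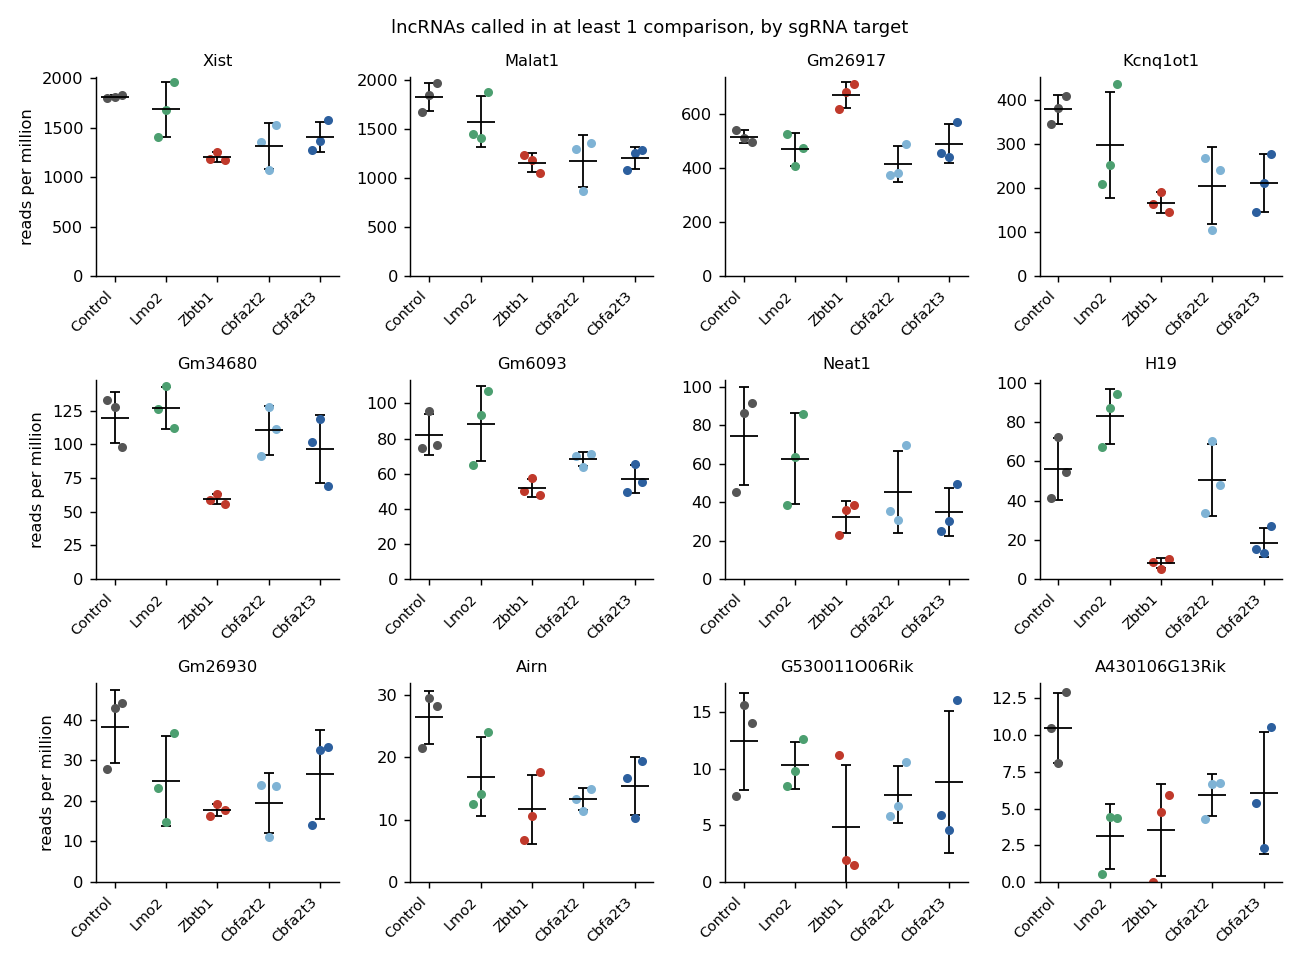
CPM of called lncRNAs in the 15 libraries by condition. Points are libraries, horizontal lines are means and bars are SD with n = 3, cut at 0. In H19 the sgZbtb1 libraries, at 5.26 to 10.3, are below the sgCbfa2t3 libraries, at 13.1 to 27.1, which are below sgControl.

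Of the other lncRNAs called in sgZbtb1, Gm34680 kept its call in every refit, although its fold change does not reach the size that the study's rule asks for. This lincRNA, inside Zdhhc19 at chr16:32550211-32553708 and on its strand, had 133, 128 and 97.9 CPM in sgControl and 58.7, 63.1 and 56.0 in sgZbtb1, while Zdhhc19 was at 0. The log2 fold change was −0.99 (adjusted p = 2.76e-06), and against sgCbfa2t3 it was −0.66 (adjusted p = 0.00715, limma). Libraries of sgLmo2 and sgCbfa2t2 held 91.5 to 143. The call against sgCbfa2t3 was lost without sgZbtb1 replicate 3 (−0.62), sgCbfa2t3 replicate 1 (−0.61) or sgCbfa2t3 replicate 2 (−0.49).

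Gm6093, a lincRNA on the minus strand at chr13:33562486-33569317 with no protein-coding start within 5 kb, had 74.9, 95.5 and 76.2 in sgControl and 50.3, 57.9 and 47.6 in sgZbtb1. Its log2 fold change of −0.65 (adjusted p = 0.00868, limma) was not called without sgControl replicate 2 (−0.54) or sgZbtb1 replicate 3 (−0.59). G530011O06Rik, which overlaps Mid1 on the other strand at chrX:169975043-169978917, had 7.55, 15.6 and 14.1 in sgControl and 11.2, 1.91 and 1.47 in sgZbtb1. These groups overlapped, and the call at −1.54 (adjusted p = 0.0320, limma) was lost without sgControl replicate 2 or 3 (−1.35 and −1.42) and without sgZbtb1 replicate 2 or 3 (−1.23 and −1.11).

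Gm26917, beside the ribosomal sequence, was the 1 lncRNA that rose. It had 540.1, 509 and 494 in sgControl and 617, 681 and 709 in sgZbtb1, with 374 to 571 in the other 9 libraries. The log2 fold change was 0.38 against sgControl (adjusted p = 0.00920) and 0.46 against sgCbfa2t3 (adjusted p = 0.00191, limma). The first call was lost without sgControl replicate 3 (0.35) or sgZbtb1 replicate 3 (0.33) and the second without sgCbfa2t3 replicate 2 (0.39).

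Hosts of microRNAs were chosen as members with a microRNA gene inside them on the same strand, and there were 11. Mature sequences for 10 of them were found in RefSeq (GRCm38.p6, 35 sequences in all), and 6 of those from H19, Gm4258 and Mir142hg are shown with the seed (bases 2 to 8) in capitals, because host transcript and seed together show which repressors each locus can supply. H19 carries miR-675, Gm4258 carries miR-181a and miR-181b, and Mir142hg carries miR-142a, a microRNA of blood cells.
miR-675-5p (chr7:142577112-142577133, minus strand): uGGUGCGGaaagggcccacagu
miR-675-3p (chr7:142577078-142577099, minus strand): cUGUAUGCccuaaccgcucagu
miR-181a-5p (chr1:137966468-137966490, plus strand): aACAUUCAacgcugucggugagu
miR-181b-5p (chr1:137966650-137966673, plus strand): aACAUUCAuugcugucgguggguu
miR-142a-5p (chr11:87756867-87756887, plus strand): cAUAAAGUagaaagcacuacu
miR-142a-3p (chr11:87756903-87756925, plus strand): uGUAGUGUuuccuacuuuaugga
The miR-181a-5p and miR-181b-5p sequences share the seed ACAUUCA, and the other 4 have seeds of their own.

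The host RNAs had medians below 0 in every comparison with sgControl. For the 11 the median log2 fold change was lowest in sgCbfa2t3 (−0.60), followed by sgZbtb1 (−0.53), sgCbfa2t2 (−0.48) and sgLmo2 (−0.29), beside medians of all genes between −0.03 and 0.01. Calls were fewer, 2 in sgZbtb1 (H19 and A430106G13Rik), 1 in sgCbfa2t3 (H19) and none in the other comparisons with sgControl, beside 4.79% of all genes in sgZbtb1 and 0.537% in sgCbfa2t3. Of these, A430106G13Rik was a member only through its sgControl libraries, where it was highest. Mir142hg had 47.0, 70.6 and 66.8 in sgControl, 32.4, 48.3 and 45.7 in sgZbtb1, 36.7, 19.1 and 47.8 in sgCbfa2t2 and 31.6, 33.1 and 38.8 in sgCbfa2t3. Its log2 fold changes were −0.53, −0.89 and −0.80 (adjusted p = 0.200, 0.125 and 0.114, limma). In sgLmo2 Mir142hg had 26.6, 33.2 and 59.7, with −0.68 (adjusted p = 0.765, limma). Mir17hg, host of the miR-17 to miR-92 cluster, had log2 fold changes between −0.14 and 0.21. Mature microRNAs were not measured.

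The miR-181 locus on chromosome 1 held 2 of the called lncRNAs, and it was examined after their values had been seen. Gm4258 spans chr1:137898595-138000384 on the plus strand, and inside it on the same strand lie Gm26930 (chr1:137932041-137933284, sense intronic) and A430106G13Rik (chr1:137966531-137969918), which covers the miR-181b gene. Gm26930 had 27.9, 42.8 and 44.0 in sgControl and 16.2, 19.1 and 17.7 in sgZbtb1, a log2 fold change of −1.05 (adjusted p = 0.0226, limma). A430106G13Rik had 10.5, 8.10 and 12.9 in sgControl and 0, 4.78 and 5.89 in sgZbtb1, a log2 fold change of −1.73 (adjusted p = 0.0456, limma). A430106G13Rik reached the mean of 5 only with its sgControl libraries, where it was highest, so its lower call is not independent of the rule. Libraries of both groups were apart for both genes.

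The Gm26930 call was lost without sgControl replicate 2 or 3 (−0.95 and −0.93) and without sgZbtb1 replicate 1 or 3 (−0.99 and −1.05), and that of A430106G13Rik without sgControl replicate 1, 2 or 3 (−1.72, −1.89 and −1.58) and without sgZbtb1 replicate 1, the library at 0 (−0.84). Of 6 further genes of the region, which the annotation types as TEC, its class for loci that await experimental evidence, Gm37298 (−1.06), Gm37124 (−1.27) and Gm37632 (−1.96) were also lower in sgZbtb1 (adjusted p = 0.0492, 0.00782 and 0.0302, limma), and A130050O07Rik, D130019J16Rik and Gm37534 had −0.99, −0.55 and −0.41 and were not called. The host Gm4258 had 58.7, 59.0 and 51.0 in sgControl and 30.2, 36.8 and 50.1 in sgZbtb1, with a log2 fold change of −0.54 (adjusted p = 0.141, limma). TEC genes as a class also took less of the reads in sgZbtb1, a mean of 0.154% beside 0.274% in sgControl. Of all genes, 2.94% were called lower in sgZbtb1. All 9 measured genes of the region had log2 fold changes below 0 in each of the 4 comparisons, where 47.7% to 53.3% of all genes did. They lie on 1 strand inside 1 transcription unit and are not independent of each other, and the region held no peak of Zbtb1 or Cbfa2t3. The nearest protein-coding gene, Ptprc, which encodes the leukocyte antigen CD45, fell in sgZbtb1 with a log2 fold change of −0.28 (adjusted p = 0.0393, limma).

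**Figure D3:**
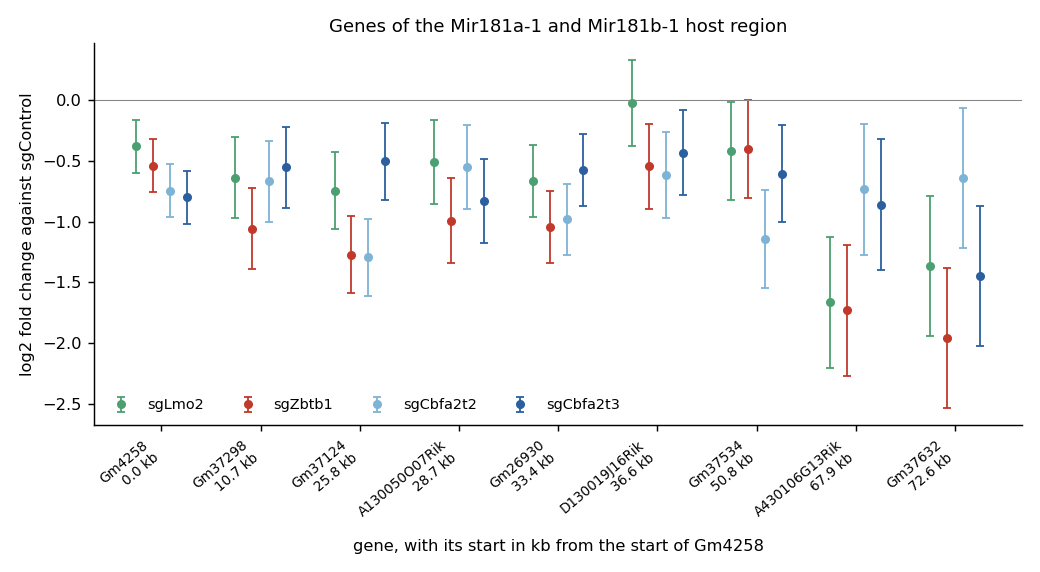
Log2 fold change of (value + 1) against sgControl for the 9 measured genes of the Gm4258 region, by condition. Points are estimates from 3 against 3 libraries and bars are SE. All points lie below 0, from −0.02 for D130019J16Rik in sgLmo2 to −1.96 for Gm37632 in sgZbtb1.

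Hosts of snoRNAs had medians above 0 in the comparisons with sgControl. There were 23 members with a snoRNA gene inside on the same strand, with a median level of 45.2 CPM, and limma called none in any comparison. Their median log2 fold change was 0.20 in sgCbfa2t2, 0.17 in sgCbfa2t3, 0.11 in sgZbtb1 and 0.04 in sgLmo2, and 16, 17, 14 and 16 of the 23 were above 0. At an unadjusted p under 0.05, 6 were higher in sgCbfa2t2, 5 in sgCbfa2t3 and 4 in sgZbtb1, where 4.44%, 4.32% and 7.37% of all genes were higher, and none of the 23 was lower in these comparisons. In sgLmo2 1 of the 23 was lower at that threshold. Between sgZbtb1 and sgCbfa2t3 the median of the 23 was −0.04. Gas5, the highest of them, had 656 to 682 in sgControl and 611 to 740.5 in sgZbtb1, and its log2 fold changes against sgControl lay between −0.04 and 0.03.

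Snhg12 had 29.6, 19.1 and 24.0 in sgControl and 38.5, 38.7 and 40.8 in sgZbtb1, which did not overlap, with a log2 fold change of 0.70 (adjusted p = 0.0522, limma), and it was the 1 snoRNA host called by edgeR, whereas DESeq2 called none. Snhg9 had 209.6, 189 and 191 in sgControl and 221, 235 and 275 in sgZbtb1, with 0.30 (adjusted p = 0.0776, limma). 2700038G22Rik had the largest estimate of the group, 1.17 in sgZbtb1 (adjusted p = 0.0789, limma), from 9.29, 10.4 and 3.52 to 11.7, 20.1 and 21.6. Of the 22 listed snoRNA hosts 17 were members, and limma called none of them. Of 18 other known lncRNAs 5 were members (Oip5os1, Lockd, Trp53cor1, Peg13 and Fendrr), none of which was called by limma, edgeR or DESeq2 in any pairwise comparison, and Oip5os1 had log2 fold changes against sgControl of −0.28 to −0.04.

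**Figure D4:**
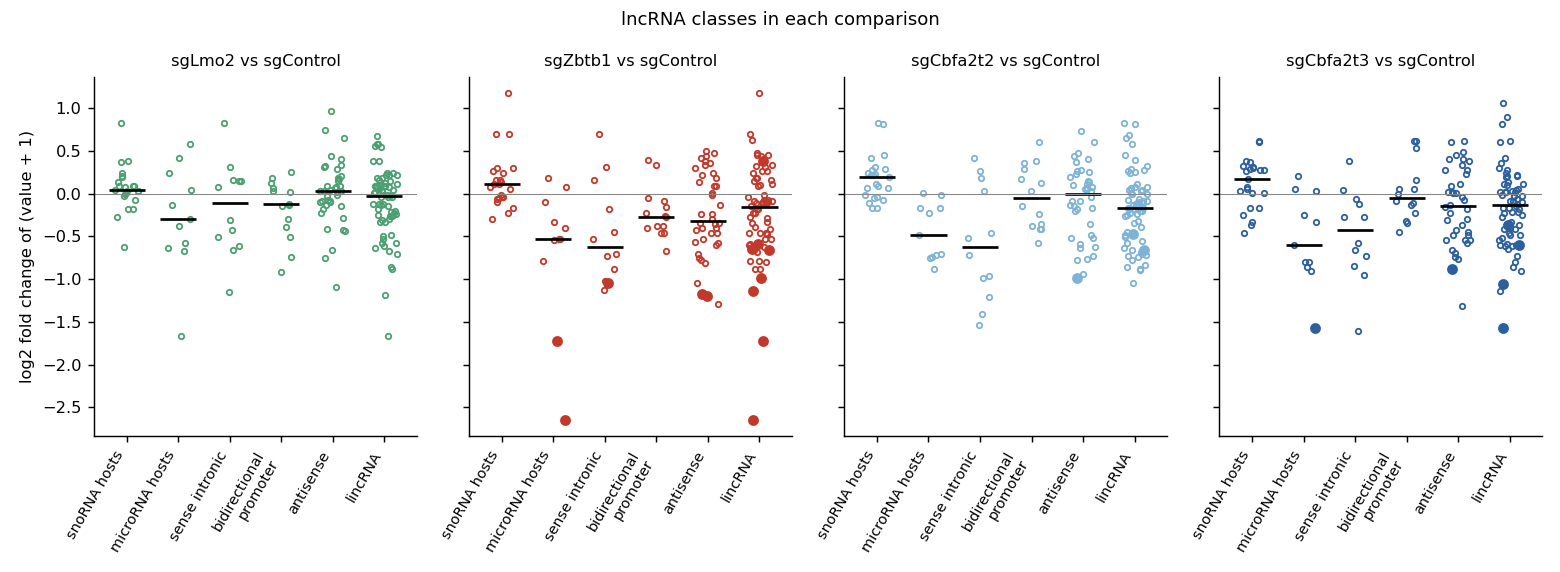
Log2 fold change of (value + 1) against sgControl for 6 classes of lncRNA in the 4 comparisons. Each point is a lncRNA, filled where its adjusted p was under 0.05, and the bar is the median of the class, and a lncRNA may stand in 2 classes, as H19 does. In sgZbtb1 the median of the snoRNA hosts is 0.11 and those of the microRNA hosts and sense intronic lncRNAs are −0.53 and −0.62.

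By annotated structure, the 12 sense intronic lncRNAs had the lowest medians, −0.62 in sgZbtb1 and −0.62 in sgCbfa2t2, with 1 call (Gm26930). In 54 lncRNAs the annotated exons of all transcripts merged into 1 block, and in 134 they did not. The first group can hold genes with spliced transcripts, as it does Snhg1, Zfas1 and Snhg12. Among the 54, 5 fell and 1 rose in sgZbtb1, and among the 134, 6 fell and none rose, beside 2.94% lower and 1.85% higher of all genes, with medians of −0.17 and −0.24. All 12 lncRNAs called in any of these pairwise comparisons were among the 103 without a protein-coding start within 5 kb, and none of the 85 with such a neighbour was called by limma, edgeR or DESeq2, 10 of the 85 having an unadjusted limma p under 0.05 in sgZbtb1, where 17.6% of all genes did. Medians of the 85 and the 103 in sgZbtb1 were −0.23 and −0.28, and their median levels were 9.06 and 14.7 CPM.

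Protein-coding neighbours were measured for 78 of those 85. In sgZbtb1 6 of the 78 neighbours were called, beside 4.79% of all genes (1.85% higher and 2.94% lower), namely Rcc1, Klhdc4, Uchl5 and Ncl, which rose (log2 fold changes of 0.49, 0.73, 0.56 and 0.35), and Kmt2e and Cnot1, which fell (−0.41 and −0.44). Without sgZbtb1 replicate 3 this count was 3. The lncRNAs beside them, Snhg3, Gm42047, Gm29170, C130036L24Rik, 5031425E22Rik and 4930513N10Rik, had estimates of 0.12, 0.11, 0.69, −0.23, −0.23 and 0.38 and were not called. No neighbour was called in the other 4 comparisons, and the neighbour had the higher level in 66 of 78 pairs.

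A test of any difference among the 5 conditions (moderated F test in the same fit) called 9 lncRNAs, 4.79% beside 4.54% of all genes. Of these, Xist, Malat1, Kcnq1ot1, Neat1, H19, Gm34680, Gm6093 and Gm26917 are described above. Gm17745, a lincRNA on chr10:93335393-93348877, was called by this test alone (adjusted p = 0.0121). It had 9.87, 5.79 and 8.21 in sgControl and 7.98, 1.91 and 3.38 in sgCbfa2t2, and 19.3, 10.8 and 14.4 in sgCbfa2t3. The lowest and highest conditions were thus sgCbfa2t2 and sgCbfa2t3, with sgControl between them.

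Summed over all 188, lncRNAs took 10.6%, 9.82% and 9.64% of reads in the sgControl libraries and 8.79%, 9.42% and 9.60% in sgZbtb1. The difference was −0.754 percentage points (two-sided exact permutation test, p = 0.1, the smallest that 3 against 3 libraries allow). For sgCbfa2t2, sgCbfa2t3 and sgLmo2 it was −0.537, −0.294 and −0.272 (exact p = 0.3, 0.6 and 0.6). Without sgControl replicate 1 the differences of sgCbfa2t3 and sgLmo2 changed sign (0.00221 and 0.0243), and those of sgZbtb1 and sgCbfa2t2 were −0.457 and −0.241. Without sgCbfa2t2 replicate 1 the difference of sgCbfa2t2 was −1.01. Without Gm42418 the share was 0.978%, 0.993% and 1.01% in sgControl, 0.812%, 0.806% and 0.814% in sgZbtb1, 0.861%, 0.761% and 0.883% in sgCbfa2t2, and 0.818%, 0.846% and 0.894% in sgCbfa2t3. The libraries of these 3 conditions were all below those of sgControl (exact p = 0.1 for each), and sgLmo2, at 0.868%, 0.891% and 1.07%, overlapped sgControl.

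Other shares of the libraries also differed from sgControl. TEC genes, which are not typed as lncRNA, took 0.253% to 0.294% in sgControl, 0.146% to 0.163% in sgZbtb1, 0.113% to 0.198% in sgCbfa2t2, 0.149% to 0.219% in sgCbfa2t3 and 0.166% to 0.293% in sgLmo2. Mitochondrial genes took 6.72% to 6.89% in sgControl and 5.03% to 6.48% in the other 12 libraries. In sgLmo2, whose lncRNA share overlapped sgControl, they took 6.09% to 6.36%. The part of either in the lower lncRNA levels was not tested.

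Zbtb1 and Cbfa2t3 binding at the lncRNA starts was read from the deposited peak lists of 5898 and 6077 peaks. A Zbtb1 peak centre lay within 1 kb of the annotated start of 33 lncRNAs (17.6%, 95% Wilson interval 12.8% to 23.6%), beside 21.8% of all genes in the fit and 24.6% of protein-coding genes with a mean of at least 5. For Cbfa2t3 there were 19 (10.1%, 6.57% to 15.2%), beside 7.72% and 8.24%. Both factors had a peak at 9 lncRNAs. Of the 33 Zbtb1-bound starts 27 had a protein-coding start within 5 kb, so that a peak there cannot be given to 1 of the genes, and of the 19 Cbfa2t3-bound starts 7 had one.

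None of the 33 lncRNAs with a Zbtb1 peak was called in any pairwise comparison by limma, edgeR or DESeq2, and in sgZbtb1 2 of the 33 had an unadjusted limma p under 0.05, beside 17.6% of all genes. Their median log2 fold change in sgZbtb1 was −0.17, and that of the 155 without a peak was −0.27. Gm26917, which rose in sgZbtb1, is not among the 33, since the centre of the Zbtb1 peak inside it (score 5875.1) lies more than 1 kb from its start. Of the 19 with a Cbfa2t3 peak, Neat1, Gm6093 and Airn were called in sgZbtb1 and Neat1 in sgCbfa2t3, beside 4.79% and 0.537% of all genes, and of the 169 without a Cbfa2t3 peak 9 and 4 were called. The median of the 19 was −0.43 in sgZbtb1 and −0.22 in sgCbfa2t3, beside −0.18 and −0.10 for the 169.

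Windows of 200 bp around the Cbfa2t3 peak centres of Neat1 and Gm6093 are shown because both lncRNAs were called, Neat1 in sgZbtb1 and sgCbfa2t3 and Gm6093 in sgZbtb1 but not in sgCbfa2t3. Those of 2010320M18Rik and Jpx are shown because they had the highest scores (299.4 and 191.8) of Zbtb1 peaks within 1 kb of a lncRNA start. All are written 5′ to 3′ on the strand of the lncRNA (mm10), and the peak centre is given from the lncRNA start, negative being upstream. In the Cbfa2t3 windows capitals mark the E-box CANNTG, the site of basic helix-loop-helix factors, and the Runx letters TGTGGT on either strand, and in the Zbtb1 windows they mark the letters TGGTGGT, found in sites of ZBTB factors, and TGTGGT.
Neat1, Cbfa2t3 centre at −55 bp, score 65.2 (chr19:5845433-5845632, minus strand): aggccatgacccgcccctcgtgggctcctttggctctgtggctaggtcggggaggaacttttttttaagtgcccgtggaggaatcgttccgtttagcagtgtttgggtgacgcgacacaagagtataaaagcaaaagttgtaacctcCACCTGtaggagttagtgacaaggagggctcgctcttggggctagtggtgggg
Gm6093, Cbfa2t3 centre at −300 bp, score 41.7 (chr13:33569517-33569716, minus strand): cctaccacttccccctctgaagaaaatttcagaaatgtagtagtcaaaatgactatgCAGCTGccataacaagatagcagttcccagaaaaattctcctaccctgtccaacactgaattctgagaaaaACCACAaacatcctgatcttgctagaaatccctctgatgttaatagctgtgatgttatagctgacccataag
2010320M18Rik, Zbtb1 centre at −184 bp, score 299.4 (chr8:70776531-70776730, plus strand): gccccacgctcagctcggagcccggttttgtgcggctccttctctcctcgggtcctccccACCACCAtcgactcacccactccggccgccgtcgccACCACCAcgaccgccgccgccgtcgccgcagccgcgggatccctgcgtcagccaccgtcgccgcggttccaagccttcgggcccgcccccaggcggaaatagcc
Jpx, Zbtb1 centre at 258 bp, score 191.8 (chrX:103493714-103493913, plus strand): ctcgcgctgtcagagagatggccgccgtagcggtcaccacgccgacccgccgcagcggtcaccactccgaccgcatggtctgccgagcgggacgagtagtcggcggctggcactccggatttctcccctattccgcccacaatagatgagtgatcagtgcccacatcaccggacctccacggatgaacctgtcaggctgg
The Neat1 and Gm6093 windows each held 1 E-box, the Gm6093 window also held the Runx letters, the 2010320M18Rik window held TGGTGGT at 2 places, and the Jpx window held neither.

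Counted over both strands, the E-box letters stood in 13 of the 19 Cbfa2t3 windows at lncRNAs and in 89.3% of the windows of all Cbfa2t3 peaks, and the Runx letters in 3 of 19 and 43.7%. GATA letters (AGATAA) stood in 4 of 19 and 6.44%, and TGGTGGT in 2 of 19 and 6.94%. In the 33 Zbtb1 windows at lncRNAs the Runx letters stood in 5, the E-box in 10, TGGTGGT in 3 and AGATAA in 2, and over all Zbtb1 peaks the shares were 41.3%, 53.6%, 15.8% and 4.30%. TGGTGGT and TGTGGT can share letters, and a match is a description of the letters and not a measured site. Other lncRNA starts with high scores were those of Lockd for Zbtb1 (180.3) and Mirt1, Gm47283, 1700096K18Rik and Mir142hg for Cbfa2t3 (59.2, 53.5, 53.3 and 50.4), and none of these 5 was called.

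**Figure D5:**
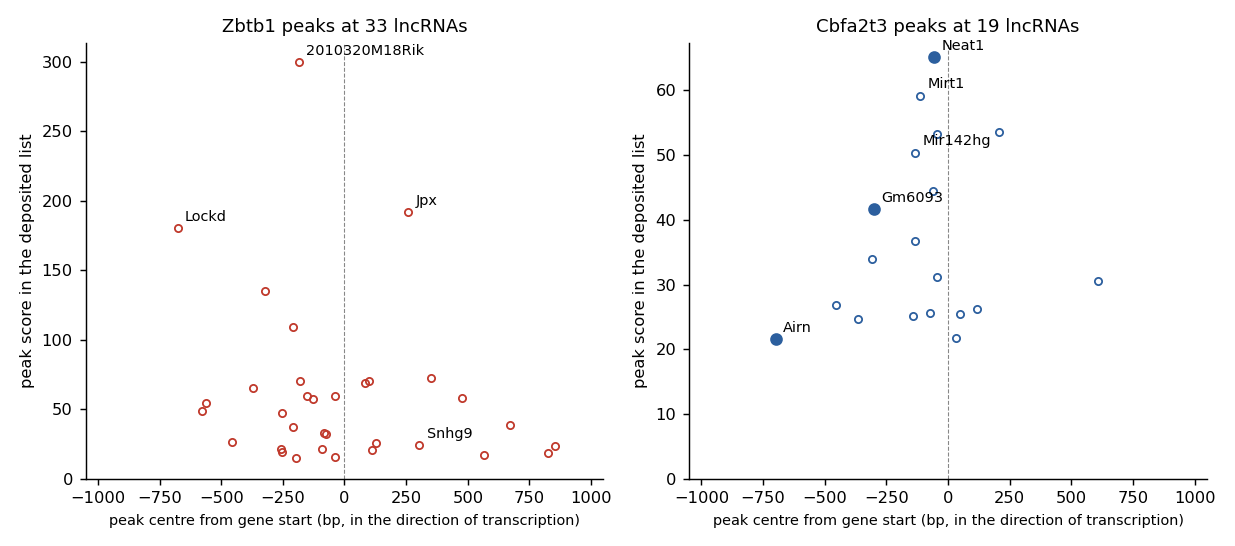
Score of each Zbtb1 or Cbfa2t3 peak within 1 kb of a lncRNA start against the distance of its centre from the start in bp, negative being upstream. Each point is 1 lncRNA, filled where it was called in at least 1 comparison. Filled points are Neat1, Gm6093 and Airn, all in the Cbfa2t3 panel, and 20 of 33 Zbtb1 and 14 of 19 Cbfa2t3 centres lie within 300 bp of the start.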

How the data were processed

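QuantSeq 3′ mRNA libraries of 15 LP samples were trimmed by the authors with fastp, mapped to mm10 with STAR and deposited as CPM, that is, reads scaled to 1000000 per library and not divided by length, although the study names the unit TPM. Whole reads were recovered for 99.99% or more of the values in each library within 0.05 reads. The counting tool, its strand setting and the annotation release are not given in the sources used here. For ChIP-seq, reads were aligned with Bowtie 1.1.1 and peaks called with HOMER from 2 replicates per factor with inputs, and the deposited peak lists give a score per peak.

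The members and lists were chosen with earlier results of these data known. Groups were taken from the labels. Genes with a mean above 1 were fitted in R 4.3.3 with limma 3.58.1 (lmFit, eBayes with trend) on log2(value + 1) over all 15 libraries, and p-values were adjusted by Benjamini-Hochberg over 11554 genes. One row without a gene, at most 5.86e-05% of a library, was left out. Named were the 10 highest members, for each comparison up to 10 called in each direction without overlap between groups, members of the lists, called members with a peak and their neighbours, and those next to the limit. Neat1 in sgCbfa2t3, G530011O06Rik, Gm17745, the genes of the miR-181 region and further examples fall outside this rule and were chosen after their values were seen. Positions are from GENCODE vM21 and RefSeq GRCm38.p6, both mm10, and peaks were assigned within 1 kb of the gene start. Single-value tests were exact permutation tests with SciPy 1.17.1. The fit was tested on data simulated with changes in sgZbtb1. It called 15 of 38 lncRNAs changed 2-fold and 19 of 22 changed 4-fold. Of other genes it called 36 of 62 changed 2-fold and 76 of 78 changed 4-fold, and 6 of 11354 unchanged genes. A lncRNA that was not called may thus have changed 2-fold. Alternatives were other pseudocounts, filters, sample sets, normalization, call rules, edgeR 4.0.16 and DESeq2 1.42.0 on the recovered reads, a replicate block, leaving out each library, and, chosen after seeing the data, scaling without Gm42418 and Gm26917. Depth was 1705416 to 2095447 reads, and intervals and the limit of 3 reads cover counting error only. The sequence of 1 peak window is not reported here.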

Additional observations from a re-analysis of the deposited data

How the results depend on the processing

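Among 23 pairs of a called lncRNA and a comparison, 340 recomputed values kept the call in 256 cases, lost it in 83 and changed sign in 1, and Xist, Gm34680 and H19 in sgZbtb1 kept it in all 15 of their refits. The reversal was Xist in sgCbfa2t3 at 0.0231 (log2) against the 9 other targeting libraries in place of sgControl, which include conditions in which Xist also fell. Against those 9 libraries 7 lncRNAs were called in sgLmo2, all higher, 4 in sgZbtb1 (12 against sgControl) and 0 in sgCbfa2t3 (5). In sgCbfa2t2 2 were called lower and 1 higher, none of them called against sgControl. With all genes above 0 in the fit, calls were 6 in sgZbtb1, 0 in sgCbfa2t2, 1 in sgCbfa2t3 and 0 between sgZbtb1 and sgCbfa2t3. The adjustment covers more genes there, and lncRNAs with an unadjusted p under 0.05 also went from 35 to 29 in sgZbtb1. DESeq2 called 1 in sgCbfa2t2 and 1 in sgCbfa2t3, and the study's rule called 2 in sgLmo2 and 1 between sgZbtb1 and sgCbfa2t3. That rule, which asks for a log2 fold change beyond 1, left out Xist and Gm34680 in sgZbtb1, and it is not among the 340 values, nor are 2 for which DESeq2 gave no adjusted p. With the replicate block 5 were called in sgCbfa2t2 and 16 by the F test (9 without it), but samples with the same number did not pair (mean correlation of deviations 0.0279 over 30 pairs, −0.0139 for different numbers). Leaving out 1 library gave 0 to 0 calls in sgLmo2, 7 to 12 in sgZbtb1, 1 to 6 in sgCbfa2t2, 2 to 8 in sgCbfa2t3, 1 to 3 between sgZbtb1 and sgCbfa2t3, 8 to 13 by the F test and 3 to 6 called neighbours. Shares of reads moved between −0.498 and 0.0243 percentage points in sgLmo2, between −0.946 and −0.457 in sgZbtb1, between −1.01 and −0.241 in sgCbfa2t2 and between −0.487 and 0.00221 in sgCbfa2t3, and they reversed in sgLmo2 (0.0243) and sgCbfa2t3 (0.00221) without sgControl replicate 1, the library with the most Gm42418. Starts with a peak numbered 54 for Zbtb1 and 44 for Cbfa2t3 within 10 kb, and 21 and 11 at a score of at least 30. Scaling without Gm42418 and Gm26917 called the same lncRNAs. For lncRNAs near a mean of 5 CPM depth limits the precision. The cause of the differences between settings was not tested.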
